A study of Mus musculus with 3 samples.

Results

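The immediate early transcription factors and their companions described here are Egr1, Egr2, Egr3, Fos, Fosb, Jun, Junb, Ier2, Ier3 and Atf3, measured in EpH4-PR mouse mammary epithelial cells. They were taken as every non-control probe of the arrays that carries one of these 10 gene names, which gave 14 probes of the 41174 probes and 29273 gene names on the array. The genes were chosen by values of these same arrays, since the Egr1 ratio is among the lowest measured, so the members' ratios are given as a description with no test.

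EpH4 is a mouse mammary epithelial cell line derived from the gland at mid-gestation, and EpH4-PR cells are EpH4 clones stably transfected with isoform A of the progesterone receptor (PR-A) and selected with G418. The cells were grown in serum-containing DMEM and harvested before full confluence, and the labels name no stimulation or time course. Total RNA of EpH4-PR cells was labelled with Cy5 and hybridised on 3 Agilent mouse arrays, numbered as replicates 1 to 3, against a commercial mouse reference RNA (Stratagene mouse standard) labelled with Cy3. Cells with the empty vector (EpH4-EV) were not analysed here. A ratio therefore sets EpH4-PR RNA against the reference and does not measure an effect of the receptor. The dyes were not swapped, so dye and sample cannot be told apart, and the labels do not state whether the arrays came from separate cultures, so the errors and p-values measure only the spread between these arrays.

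Immediate early genes are transcribed within minutes of a stimulus such as serum or a growth factor, without new protein synthesis, when Mapk signalling acts on the serum response factor Srf with its Elk partners and on Creb. The Egr proteins are zinc finger factors that bind GC-rich sites. Fos and Jun proteins pair through leucine zippers to form AP-1, with Atf3 as a related partner and repressor. Their transcripts are short-lived, and phosphatases of the Dusp family and the corepressor Nab2 are themselves induced and limit the response.

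The promoter sequence of 3 members is shown because these windows hold letters of the elements through which such genes are classically described: the core of the cAMP response element in all of them, a serum response (CArG) box in Egr2 and a TATA box in Fos. The sequences are from RefSeq on GRCm38.p6, 250 bases upstream of a transcription start, 5′ to 3′ on the strand of the gene. Egr2 has 5 such starts, of which the one farthest downstream is shown, and not all 5 windows hold a CArG box or TGACG. Capitals mark a CArG box, the TATA box letters TATAAA, or the letters TGACG on either strand, which form the core of the cAMP response element. Egr2 lies on the plus strand (chr10:67537680-67537929), Fos on the plus strand (chr12:85473640-85473889) and Junb on the minus strand (chr8:84978749-84978998).
Egr2: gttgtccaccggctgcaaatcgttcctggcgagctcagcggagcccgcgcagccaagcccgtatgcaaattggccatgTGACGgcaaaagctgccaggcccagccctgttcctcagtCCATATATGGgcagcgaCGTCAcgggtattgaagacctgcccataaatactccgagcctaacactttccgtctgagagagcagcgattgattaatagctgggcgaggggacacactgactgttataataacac
Fos: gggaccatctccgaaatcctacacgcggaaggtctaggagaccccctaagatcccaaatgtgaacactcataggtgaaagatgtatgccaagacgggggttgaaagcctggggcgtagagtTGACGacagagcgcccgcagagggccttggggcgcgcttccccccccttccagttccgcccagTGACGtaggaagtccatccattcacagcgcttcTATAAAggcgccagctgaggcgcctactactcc
Junb: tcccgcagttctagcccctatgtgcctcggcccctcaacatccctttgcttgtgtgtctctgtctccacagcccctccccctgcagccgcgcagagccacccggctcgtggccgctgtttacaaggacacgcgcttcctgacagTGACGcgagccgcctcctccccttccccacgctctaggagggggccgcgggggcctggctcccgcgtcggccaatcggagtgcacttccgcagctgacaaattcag

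A start site window was given for 7 of the 10 members, namely Egr2, Fos, Fosb, Jun, Junb, Ier3 and Atf3; there was none for Egr1, Egr3 and Ier2. The 7 genes have 11 windows of 300 bases, from 250 before to 50 after the start, 5 of them for Egr2, and both strands were searched. A member was counted where any of its windows matched, whereas each share is over single windows. Counts of members and shares of windows are therefore not like for like. The CArG box, the binding letters of Srf, was found in Egr2 alone among the 7 and in 1.63% of all 32851 windows of that length. The letters TGACG were found in 5 members (Egr2, Fos, Fosb, Junb and Atf3) and in 20.8% of all windows. The full element TGACGTCA, which contains TGACG, was found in 0 of the 7 members and in 1.79% of windows. The AP-1 letters TGANTCA were in 0 members against 7.81% of windows, and the Egr letters GCGNGGGCG were in Fosb alone against 5.55%. The letters TATAAA were in Fos, at positions -33 to -28 from the start, and in Junb just after it, against 13.6% of windows. The GC box letters GGGCGG were in 6 members against 35.7%, and the Ets letters CCGGAA in Egr2 alone against 14.9%. A match describes these letters in these windows and shows neither binding nor regulation. Sequence outside the windows was not searched, so a gene without a match here may hold the element elsewhere.

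All 14 probes had a mean log2 ratio below 0 after loess, from -5.33 for Egr1 to -0.05 for a Fosb probe, but under median centring of the arrays in place of loess 5 of the 14 were above 0, those of Fosb, Junb and Ier3. A loess fit takes off the part of the ratio that changes with brightness, and a log2 ratio of -1 means that the EpH4-PR signal was 2-fold lower than the reference signal. The ratio was below 0 on each of the 3 arrays for 13 probes, where 36.2% of all probes were. It was below -1 on each array for 5 probes, those of Egr1, Egr2, Fos, Jun and 1 of 2 Ier2 probes, where 3.36% of all probes were. Since the genes were chosen from the same ratios, nothing is read from these counts. The median over the 14 probes was -0.78 and that over all probes was -0.01.

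**Figure D1:**
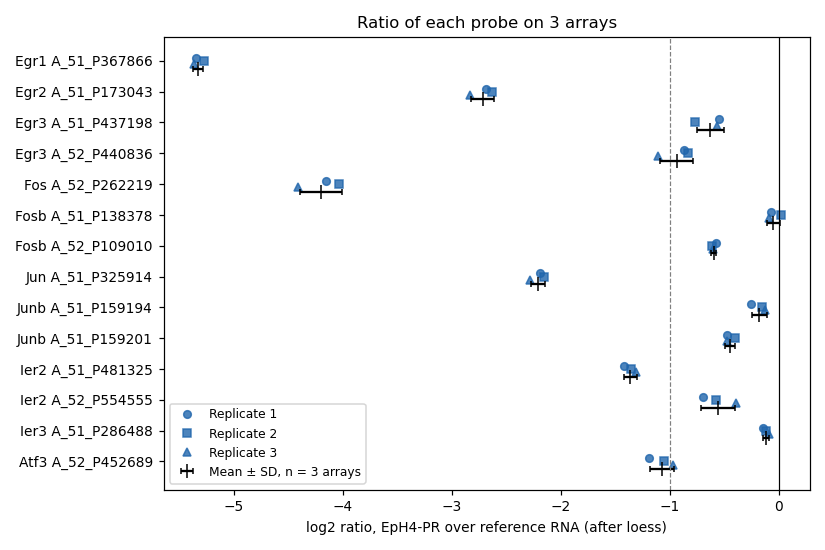
Log2 ratio between EpH4-PR and reference RNA (horizontal axis, after loess, negative where EpH4-PR is lower) for each of the 14 probes, with 1 point for each of the 3 arrays. Egr1 sits near -5.3 and Fos between -4.41 and -4.03, while the points of Fosb, Junb and Ier3 lie between -0.62 and 0.02.

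Among the Egr genes, Egr1, a zinc finger activator of growth and matrix genes, had the lowest ratio of the members. Its mean spot intensity in the EpH4-PR channel was 245, 212 and 232 on replicates 1, 2 and 3, and in the reference channel 3558, 3052 and 3582. The log2 ratio was -5.35, -5.28 and -5.36, a mean of -5.33 ± 0.046 (SD, n = 3), so that the reference signal was 40.2-fold higher. The channels were far apart on every array, and the Egr1 spot was still well above background in EpH4-PR cells on each of the 3 arrays. The probe ranked 4 from the lowest of all probes by its mean ratio.

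Egr2, a related factor known for its part in hindbrain and Schwann cell development, was dimmer in both channels. Its intensity was 106, 105 and 102 in EpH4-PR cells and 405, 382 and 395 in the reference, and its log2 ratio was -2.69, -2.63 and -2.83 (mean -2.72 ± 0.11, SD, n = 3), a signal 6.58-fold higher in the reference. The EpH4-PR spot was low on every array, where negative control spots had median Cy5 intensities of 72.6, 74.1 and 57.3. The mean log2 ratio of Egr2 was -3.85 with the normexp offset at 0 and -4.01 with the log ratio of the scanner software.

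Egr3, which works in muscle spindles and lymphocytes, has 2 probes and both sat close to the background. The first, A_51_P437198, read 84.7, 102 and 68.2 in EpH4-PR cells and 151, 170 and 117 in the reference, with log2 ratios of -0.55, -0.77 and -0.57 (mean -0.63 ± 0.12, SD, n = 3). The second, A_52_P440836, read 81.4, 79.9 and 71.0 against 170, 163 and 149, with log2 ratios of -0.87, -0.84 and -1.11 (mean -0.94 ± 0.15, SD, n = 3). Both Egr3 probes were well above background on 2 of 3 arrays in the EpH4-PR channel and on 3 of 3 in the reference, and their ratios depended on how the background was treated. With the normexp offset at 0 the means were -1.43 and -2.15, and with the log ratio of the scanner software, which differs in background correction and normalization, they were -1.71 and -2.70.

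Among the AP-1 genes, Fos, the inducible partner of the Jun proteins, stood lowest. Its EpH4-PR intensity was 124, 119 and 94.4 and its reference intensity 987, 882 and 936. The log2 ratios of -4.15, -4.03 and -4.41 gave a mean of -4.20 ± 0.19 (SD, n = 3), a reference signal 18.4-fold higher, at rank 25 from the lowest of all probes. The Fos spot in EpH4-PR cells was also near the negative control level. Its mean log2 ratio was -5.29 with normexp offset 0 and -5.60 with the log ratio of the scanner software. The SD of Fos was the largest of the 14 probes, and each of its EpH4-PR intensities was still below each of its reference intensities.

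Fosb, the Fos relative with a transactivating tail, was measured by 2 probes that differed from Fos and slightly from each other. Probe A_51_P138378 read 199, 189 and 163 in EpH4-PR cells and 176, 165 and 133 in the reference, and its log2 ratios of -0.08, 0.02 and -0.10 (mean -0.05 ± 0.06, SD, n = 3) lay on both sides of 0. Probe A_52_P109010 was brighter, at 1857, 1559 and 1677 in EpH4-PR cells and 1020, 922 and 945 in the reference. Its log2 ratio after loess was -0.58, -0.62 and -0.61 (mean -0.60 ± 0.021, SD, n = 3), although the EpH4-PR spot itself was the brighter one on every array. Before loess the mean log2 ratios were 0.57 and 0.87, so the sign of Fosb follows the normalization.

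Jun, the central AP-1 subunit, was low on all arrays. It read 326, 297 and 290 in EpH4-PR cells and 669, 610 and 622 in the reference, with log2 ratios of -2.19, -2.16 and -2.28 (mean -2.21 ± 0.065, SD, n = 3), a 4.62-fold higher reference signal. Its 3 arrays stayed within a narrow range, and it ranked 298 from the lowest of all probes.

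Junb, a Jun relative with weaker transactivation, was the brightest member in EpH4-PR cells. Probe A_51_P159194 read 17840, 14950 and 17240 in EpH4-PR cells and 6566, 5375 and 5961 in the reference, and its log2 ratios after loess were -0.26, -0.16 and -0.13 (mean -0.18 ± 0.069, SD, n = 3). Probe A_51_P159201 read 8802, 8683 and 9296 against 3917, 3800 and 4216, with log2 ratios of -0.47, -0.40 and -0.48 (mean -0.45 ± 0.043, SD, n = 3). Both probes were brighter in the EpH4-PR channel before normalization, with mean log2 ratios of 1.49 and 1.18, and loess took off 1.67 and 1.63. The direction of Junb therefore depends on the normalization, as for Fosb.

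Atf3, a stress-induced partner and repressor at AP-1 and cAMP response sites, read 161, 152 and 133 in EpH4-PR cells and 254, 226 and 177 in the reference. Its log2 ratios were -1.19, -1.05 and -0.97 (mean -1.07 ± 0.11, SD, n = 3), a 2.10-fold higher reference signal. It had 1 array just above -1 and 2 below it. On either side of the limit of -1 on every array, the Ier2 probe at -1.36 was the nearest inside, and Atf3 at -1.07 and the Egr3 probe at -0.94 were the nearest outside.

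Ier2, a nuclear protein of the early growth factor response, has 2 probes that gave different sizes. Probe A_51_P481325 read 987, 864 and 1028 in EpH4-PR cells and 1016, 885 and 965 in the reference, nearly equal before normalization, and its log2 ratios after loess were -1.42, -1.36 and -1.31 (mean -1.36 ± 0.057, SD, n = 3). Probe A_52_P554555 read 129, 128 and 116 against 189, 175 and 131, with log2 ratios of -0.70, -0.58 and -0.39 (mean -0.56 ± 0.15, SD, n = 3). Both were below 0 on every array, but the first had a mean of 0.05 before loess, which took off 1.41. The size and sign of its ratio after loess thus came from the normalization, and under median centring it was at -0.10.

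Ier3, which affects survival and Mapk signalling rather than binding DNA, showed almost no ratio after loess. It read 2172, 1992 and 2207 in EpH4-PR cells and 894, 835 and 865 in the reference, with log2 ratios of -0.15, -0.12 and -0.09 (mean -0.12 ± 0.027, SD, n = 3). As for Junb, the spot was brighter in EpH4-PR cells on all 3 arrays before loess, with a mean log2 ratio of 1.36.

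**Figure D2:**
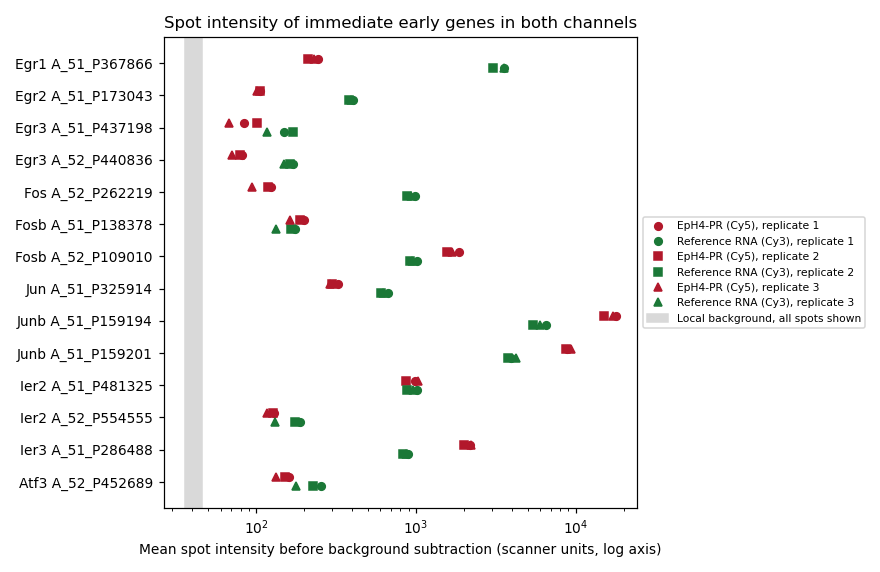
Mean spot intensity before background subtraction (horizontal axis, scanner units on a log axis) of each probe in the EpH4-PR (Cy5) and the reference (Cy3) channel, with 1 point for each array. The channels are farthest apart for Egr1 and Fos, and the EpH4-PR channel is the brighter one for both Junb probes, both Fosb probes and Ier3.

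The member ratios formed a graded series after loess. Egr1, Fos, Egr2 and Jun had every probe below -1 on all arrays, and in that order their means of -5.33, -4.20, -2.72 and -2.21 were each separated from the next by more than the spread between arrays. Ier2 by its first probe and Atf3 followed at -1.36 and -1.07, and their array values of -1.42 to -1.31 and -1.19 to -0.97 did not overlap. The Atf3 values overlapped those of the second Egr3 probe, -1.11 to -0.84. The values of Egr3, the second Ier2 probe, Fosb, Junb and Ier3 ranged from -1.11 to 0.02, and several neighbours in that order overlapped. From Jun on, the order depended on the processing. With normexp offset 0 the first Ier2 probe was at -1.47, Atf3 at -1.57 and the second Egr3 probe at -2.15. Under median centring they were at -0.10, -0.51 and -0.98. With the log ratio of the scanner software that Egr3 probe, at -2.70, was below Jun at -2.55. The SD between arrays of the 14 probes had a median of 0.067 and ranged from 0.021 to 0.19, where the median was 0.085 over the 25721 probes whose Cy5 and Cy3 spots both stood well above background on every array. The lowest ratio fell on replicates 1, 2 and 3 for 5, 2 and 7 probes and the highest for 2, 7 and 5 probes. For each of Egr1, Egr2, Fos and Jun, replicate 3 was the lowest and replicate 2 the highest.

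Brightness moved with these ratios. Over 20 bins of all probes ordered by brightness, the median log2 ratio before loess was -0.05 in the dimmest bin and 1.58 in the brightest, and loess took off between 0.11 for Egr3 and 1.67 for Junb. Egr1 was at -3.93 before loess, Fos at -3.12, Egr2 at -1.91 and Jun at -1.01, so those 4 genes were lower in EpH4-PR cells than in the reference both before and after it. Under all alternatives tried, Egr1 stayed between -5.82 and -4.08, Fos between -5.60 and -3.27, Egr2 between -4.01 and -2.06 and Jun between -2.55 and -1.16. The part of the trend that is dye and the part that is RNA content cannot be told apart without a dye swap.

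**Figure D3:**
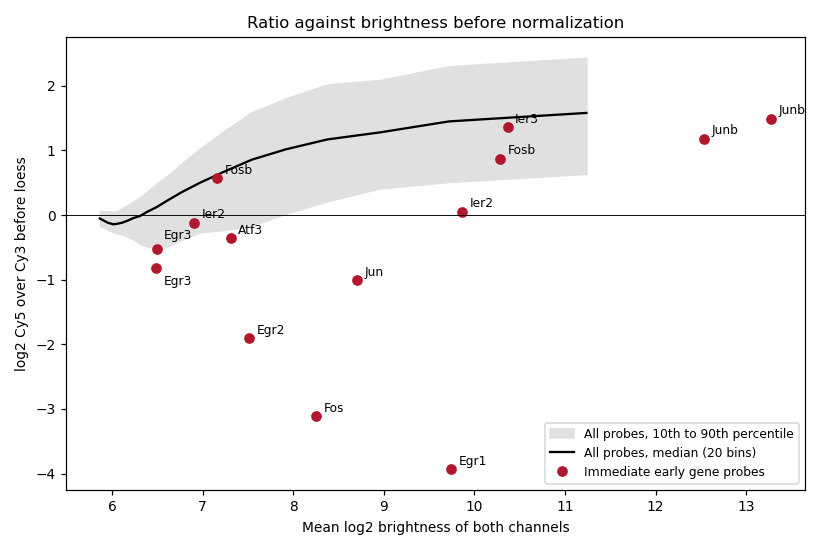
Log2 ratio of Cy5 (EpH4-PR) over Cy3 (reference) before loess (vertical axis) against mean log2 brightness of both channels (horizontal axis), with the median and the range between the 10% and 90% points of all probes in 20 bins and the 14 member probes as points. The median dips from -0.05 in the dimmest bin to -0.14 and then climbs to 1.58 in the brightest, and Egr1, Fos, Egr2 and Jun lie below 0 while the probes of Fosb, Junb and Ier3 lie above 0.

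**Figure D4:**
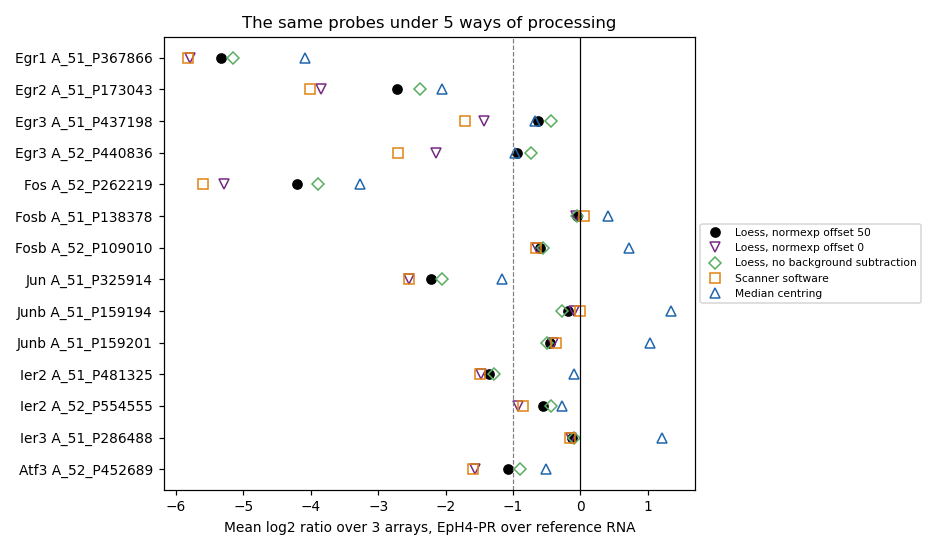
Mean log2 ratio over the 3 arrays (horizontal axis) of each member probe under 5 ways of processing, with 1 mark for each way, a solid line at 0 and a broken line at -1. Egr1, Fos, Egr2 and Jun stay below -1 under each of the 5, and the brighter Fosb probe, both Junb probes and Ier3 move from below 0 to between 0.72 and 1.34 under median centring.

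The cell type of the EpH4-PR RNA matched its label, and the reference RNA carried more of other cell types. By limma's test of each ratio against 0 over all probes, with Benjamini-Hochberg adjustment at 0.05 and a log2 ratio of 1 or more, or of -1 or less, 2.26% of all probes were called higher in EpH4-PR cells and 3.83% lower. Of 11 epithelial marker probes, all well above background, 10 were called higher, with E-cadherin (Cdh1) at 4.29 and Krt7 at 3.99, and Krt19 was lower at -2.62. Of 17 fibroblast marker probes 9 were lower and 0 higher, with 1 Vim probe at -6.51 and the other at -0.14 and not called. The summed intensity of the 17 probes was 5656 to 6166 in EpH4-PR cells against 44900 to 50676 in the reference. The lower Vim probe alone read 29940, 25990 and 29810 in the reference. No fibroblast gene lacked signal in EpH4-PR cells, though 3 of the 17 probes were not well above background on any array there. Of 15 blood cell marker probes 4 were lower and 0 higher, with sums of 1439 to 1823 against 2779 to 3384. The fibroblast sums were thus lower in EpH4-PR cells than in the reference, as were Egr1, Fos, Egr2 and Jun. For blood cells the called probes were lower, while the sums hold much floor signal. The part of either cell type in the members' ratios was not tested. In bulk RNA, fewer cells of a type and less RNA per cell cannot be told apart.

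Of other genes, those whose 3 ratios lay nearest to the 3 of Egr1, by Euclidean distance over the arrays, were Efemp1 at a distance of 0.27 and Serpinf1 at 0.37, followed by Ighg and Col3a1 at 0.41 each and Ctss at 0.49. Their mean log2 ratios ran from -5.53 for Serpinf1 to -5.05 for Ctss. Egr1 ranked 4 from the lowest and its 3 ratios were close, so the search could only return other very low probes. No link to Egr1 is read from it. Col3a1 is also one of the fibroblast markers above, and its other probes stood at -0.23 and -0.14 and were not called.

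The genes around the members were read from lists of the pathway that hold no member. Across the 5 lists 70 of 72 genes had a probe, 118 probes in all, of which 5 were called higher in EpH4-PR cells, 17 lower and 96 neither, beside the 2.26% and 3.83% of all probes. The median over these 118 probes was -0.05, close to the -0.01 of all probes. By gene, 16 were lower, 3 higher, 1 had probes called in both directions and 50 were not called. Under median centring the same 118 probes gave 37 higher and 5 lower, and 5 of the 17 probes called lower were still called lower there. That setting called 7031 of all 41174 probes higher and 708 lower, so nothing is read from the shift to higher calls.

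The factors and kinases that switch the members on were not called in either direction with the main settings. None of 28 probes of 13 genes passed, 0 higher and 0 lower, and no probe was found for the Srf partner Elk1. The median log2 ratio was -0.03, with a range from -0.76 for a probe of the cAMP modulator Crem to 0.76 for the stress kinase Mapk14. With the log ratio of the scanner software 2 probes were higher and 2 lower, and with normexp offset 0 they were 0 and 1. Srf itself was at -0.73 after loess and at 0.41 under median centring. There 8 of the 28 probes were called higher and 0 lower, beside 7031 and 708 of all 41174 probes.

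The partners of Fos, Jun and Atf3 were mostly not called. Of 20 probes of 12 genes 1 was higher, 1 lower and 18 neither, and their median was 0.08. The small Maf protein Mafg was higher by a log2 ratio of 1.01 ± 0.055 (SE, limma adjusted p = 0.00013), beside its second probe at 0.74. The Fos relative Fosl2 was lower by 1 probe, at -1.03 ± 0.044 (SE, limma adjusted p = 6.6e-05), while its second probe stood at 0.97 and was not called, so that the probes of Fosl2 disagreed in sign. Under median centring the Fosl2 probe called lower was at 0.06. Fosl1 was at -0.18 and Jund at 0.53, neither called, and under median centring they stood at 0.54 and 1.95, the latter called higher.

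Of the other immediate early genes, 26 genes with 40 probes, 9 probes were lower, 1 higher and 30 neither, with a median of -0.15. The orphan nuclear receptor Nr4a1 was lower at -2.52 ± 0.054 (SE, limma adjusted p = 1.8e-05), which was 5.74-fold, with array values of -2.50, -2.43 and -2.62. The antiproliferative gene Btg2 was lower by 1 of 3 probes, at -1.84 ± 0.047 (SE, limma adjusted p = 2.3e-05), with the others at -0.78 and 0.03. The endothelial factor Klf2 had 1 probe lower at -2.12 ± 0.056 (SE, limma adjusted p = 2.5e-05) and 1 higher at 1.08 ± 0.061 (SE, limma adjusted p = 0.00015), and no direction is given for that gene. The other probes called lower were those of Ctgf at -1.37, Zfp36 at -1.30, Ier5 at -1.11, Sgk at -1.09, Tieg1 at -1.07 and Trib1 at -1.02. Nr4a1 was still called lower under median centring, at -1.27, as was the lower Klf2 probe at -1.10, whereas Btg2 at -0.87 was not called. Of the other 6, none was called there: Ctgf and Zfp36 remained below 0, and Ier5 at 0.31, Sgk at 0.25, Tieg1 at 0.12 and Trib1 at 0.02 turned positive. The whole list gave 2 probes lower and 15 higher under that setting, beside 708 and 7031 of all 41174 probes.

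The Egr corepressors and Mapk phosphatases, which damp the response, had 4 probes lower, 0 higher and 4 neither among 8 probes of 6 genes. Their median of -0.94 turned to 0.07 under median centring. Dusp6, which inactivates Erk, was lower at -2.61 ± 0.043 (SE, limma adjusted p = 1.3e-05), a 6.13-fold difference, with array values of -2.65, -2.62 and -2.57. Dusp1 was lower at -1.73 ± 0.044 (SE, limma adjusted p = 2.3e-05) and Dusp2 at -1.53 ± 0.073 (SE, limma adjusted p = 8.9e-05). The corepressor Nab2, itself a target of Egr proteins, was lower at -1.04, while both Nab1 probes stood at 0.99 and 0.63 and were not called. Dusp6 at -1.22 and Dusp2 at -1.20 were also called lower under median centring, and Dusp1 at -0.50 and Nab2 at -0.11 were not called.

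The targets of Egr1 and AP-1 were called in both directions. Of 22 probes of 13 genes 3 were higher, 3 lower and 16 neither, with a median of -0.11. The growth factor Pdgfa was higher by both probes, at 1.89 ± 0.042 (SE, limma adjusted p = 1.9e-05) and 1.31 ± 0.061 (SE, limma adjusted p = 8.2e-05), and Pdgfb by 1 of 2 probes at 1.24 ± 0.056 (SE, limma adjusted p = 7.8e-05), its second probe standing at 0.84. The matrix protease Mmp3 was lower at -2.62 ± 0.066 (SE, limma adjusted p = 2.3e-05) and the growth factor Hbegf at -1.23 ± 0.041 (SE, limma adjusted p = 3.7e-05). One of 3 probes of the adhesion receptor Cd44 was lower at -1.34 ± 0.057 (SE, limma adjusted p = 6.6e-05), with the others at 0.19 and -0.16. Pdgfa and Pdgfb were also called higher and Mmp3 lower under median centring, whereas Hbegf at -0.18 and the Cd44 probe at -0.10 were not called there.

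**Figure D5:**
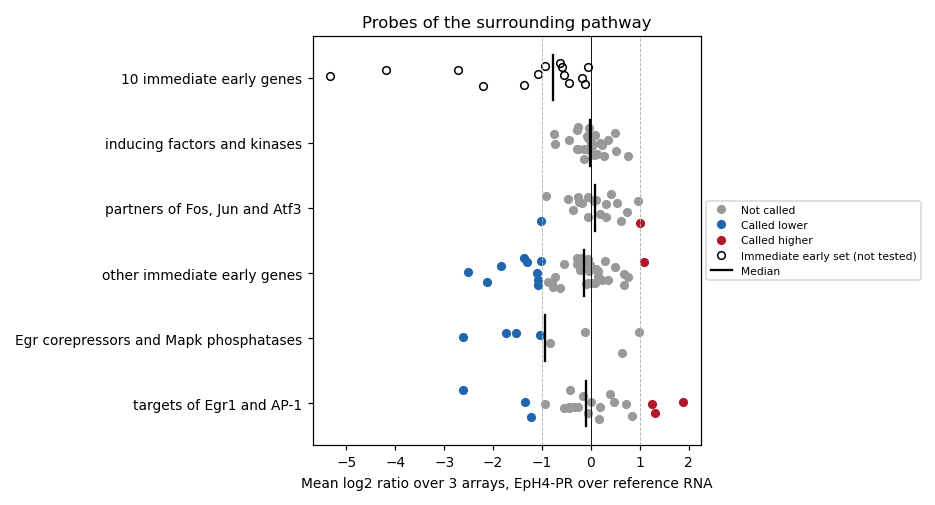
Mean log2 ratio over 3 arrays of the 118 pathway probes (horizontal axis) by list, with 1 point for each probe, called probes in blue (lower) or red (higher), a bar at each median, and the 14 untested member probes as open circles in the top row. The inducing factors and kinases lie between -0.76 and 0.76 with 0 called, and the 17 probes called lower include Dusp6 at -2.61, Mmp3 at -2.62 and Nr4a1 at -2.52.

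On each array 29599 to 30937 of the probes were flagged as well above background with EpH4-PR RNA and 32579 to 33254 with the reference. The Pearson correlation of the ratios between arrays was 0.92 to 0.95. All 14 member probes were well above background in the reference on each array and 12 of them in EpH4-PR cells, none was saturated, and each is a single spot. That flag does not mean clear detection. Negative control spots had median intensities of 72.6, 74.1 and 57.3 with Cy5 and 119.5, 121.5 and 91.8 with Cy3. Mmp10 carried the flag on every array at reference intensities of 117, 114 and 91. Egr3, the second Ier2 probe and the dimmer Fosb probe stood not far above those medians in the reference. The number of arrays limits the precision.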

How the data were processed

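The arrays are 2-colour Agilent mouse arrays scanned and read with Agilent Feature Extraction, per the labels. For every spot the deposited files give mean and median intensity by channel, local background, and the software's log10 ratio (Cy5 to Cy3). A further deposited table holds the authors' own comparison, with a log ratio, a ratio, a fold change, a p-value and an intensity for each of 2 unnamed sides, which was not used. Intensities were corrected with normexp (offset 50) on the mean spot and the median background, normalized by loess within each array, and outlier spots (150, 18 and 3 on replicates 1 to 3) and control spots were left out. Ratios were tested against 0 over all 41174 probes with lmFit and eBayes of limma 3.58.1 in R 4.3.3, with calls at an adjusted p below 0.05 and a log2 ratio no nearer to 0 than 1 or -1. The test was tried on simulated data. Figures and sequence searches used Python 3.11.15. RefSeq accessions of a GRCm38.p6 table matched 21445 of 23705 probes that carry one, and list genes were found by current or older symbol. The text names every member probe, the 3 highest and 3 lowest called probes of each list, the 5 probes nearest to Egr1, and the cell type markers. Other genes named from the lists were chosen after their values were seen. The members and lists were chosen with earlier results of these data known. Alternatives covered the background correction, the normalization, outlier and dim spots, the spot summary, the variance model, the methods' t-test and each array left out.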

Additional observations from a re-analysis of the deposited data

How the results depend on the processing

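Of the member ratios, none changed sign with an array left out. Under the other settings 45 values moved by less than the spread between arrays. Another 47 moved by at least that spread, up or down, without a change of sign, and 6 reversed. Those 6 were the Fosb probe A_51_P138378, at 0.055 with the log ratio of the scanner software and 0.41 under median centring, and, under median centring, Fosb A_52_P109010 at 0.72, the Junb probes at 1.34 and 1.03, and Ier3 at 1.21. The number of member probes below -1 on every array, 5, was 8 with normexp offset 0, 8 with the log ratio of the scanner software and 4 under median centring, where the share of all probes, 3.36%, was 6.79%, 7.89% and 1.54%, and it was 5 to 6 with an array left out. The pathway probes called higher, 5, were 12 with offset 0, 13 with the scanner software and 37 under median centring, and 5 to 6 with an array left out. Those called lower, 17, were 26, 28 and 5 under the same settings, and 16 to 17 with an array left out. Over all probes, 932 higher and 1578 lower (37.1% higher) became 3125 and 3905 (44.5%) with offset 0, 3616 and 3887 (48.2%) with the scanner software, and 7031 and 708 (90.9%) under median centring. The construction of median centring leaves the brightness trend in the ratios; the cause of the other shifts was not tested. By the methods' t-test 5 and 17 pathway probes were called, at its threshold and after Benjamini-Hochberg adjustment, and 929 and 1577 of all probes at the threshold and 897 and 1547 after adjustment. No paired analysis was possible because the arrays form 1 group. Egr3 in EpH4-PR cells was near the background, which limits its ratio. Egr2, Fos, Dusp2 and Mmp3 were also dim there, which limits the size of their ratios. With the log ratio of the scanner software those genes were at -4.01, -5.60, -2.77 and -3.88.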
